A study of Mus musculus with 24 samples.

Results

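The 10 genes described here are the 4 transcription factors of the MyoD family (Myod1, Myf5, Myf6 and Myog), the paired-box factors Pax3 and Pax7 that act before them, the calcium-binding protein gene Pvalb, and the muscle acetylcholine receptor subunits Chrna1, Chrng and Chrnb1. They were taken by symbol from a table of raw counts for 47967 genes, and all 10 were present. The question is whether genes of fast skeletal muscle come on together with the MyoD family in fibroblasts that are pushed towards a heart muscle identity. RNA was sequenced from mouse embryonic fibroblasts (MEFs), connective-tissue cells of C57BL/6 embryos at E13.5 to E14.5, in 24 libraries. There were 8 groups of 3 libraries: Mock, GMT, GHMT and AGHMT, each at 2 and at 7 days of induction. By the common reading of these letters, GMT is Gata4, Mef2c and Tbx5, GHMT adds the heart factor Hand2, and AGHMT further adds the kinase Akt1. Retroviruses carried the factors into the fibroblasts, and the cells were then kept in induction medium. The labels do not say whether Mock cells received an empty virus. Nor do they say that replicates were grown separately, so the spread behind each p-value may be only technical.

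In skeletal muscle development, Pax3 and Pax7 mark progenitors, Myf5 and Myod1 commit cells to the lineage, and Myog and Myf6 act in differentiation. The MyoD family binds the E-box, a short DNA motif written CANNTG, usually together with an E-protein partner and often beside MEF2 factors. Heart muscle does not use the MyoD family, although it shares contractile genes with skeletal muscle. The muscle acetylcholine receptor is built from alpha1, beta1, delta and either gamma (before birth) or epsilon (after birth) subunits, and its genes are textbook E-box targets. Parvalbumin, the product of Pvalb, is a calcium buffer of fast-twitch fibres and of some neurons.

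Library totals ran from 29345957 to 37495178 counts, so 3 counts in a library correspond to 0.0775 to 0.0999 CPM (counts scaled by library size with TMM factors, the unit of the levels below unless stated). A gene was called where edgeR's quasi-likelihood test gave a Benjamini-Hochberg adjusted p under 0.05 over the 17576 genes that passed a filter on low counts, and adjusted p-values below are from that test. Of the 10 genes, 5 passed the filter (Myog, Pax3, Pvalb, Chrna1 and Chrnb1), and Myod1, Myf5, Myf6, Pax7 and Chrng did not. Library 3 of AGHMT at day 2 lay furthest from the others of its group, at a root mean square distance of 0.396 log2 units, against 0.247 to 0.314 for the remaining libraries.

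On GRCm38, with GENCODE M21 models, Myod1 lies at chr7:46376474-46379099, Myog at chr1:134289989-134292548, and Myf5 and Myf6 side by side at chr10:107482908-107486134 and chr10:107492853-107494737. Pax3 lies at chr1:78101267-78197134, Pax7 at chr4:139737062-139833528 and Pvalb at chr15:78191114-78206400. The receptor genes Chrna1, Chrng and Chrnb1 lie at chr2:73563215-73580338, chr1:87204657-87212694 and chr11:69784036-69795943.

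Most genes moved in these cells. Against Mock at day 7, 73.0% of tested genes were called in GMT, 72.0% in GHMT and 76.8% in AGHMT, and at day 2 the shares were 67.1%, 68.2% and 75.4%. Of the 5 tested members, 4, 3 and 4 were called at day 7 and 2, 3 and 4 at day 2. With 5 genes, such counts are no result about the set beside those backgrounds, so the description rests on the levels and direction of each gene. The 3 cocktails were compared with the same Mock libraries.

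The MyoD family stayed low in every group, with Myod1, Myf5 and Myf6 at or near the limit of detection and Myog at most at 0.416 CPM. Myf5 had 0 counts in all 24 libraries, which allows a level of up to 0.00372 CPM over the series (counting error only). Myod1, the factor known for turning fibroblasts into muscle cells when forced on, had 35 counts in all and 0 to 3 in a library. Summed over the 3 libraries of a group, it held 5 counts in Mock, 5 in GMT, 3 in GHMT and 5 in AGHMT at day 2. At day 7 the sums were 4, 4, 6 and 3 in the same order. The groups overlapped throughout.

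Myf6, a late factor of the family, had 10 counts in all, of which 5 lay in GMT at day 7 (1, 1 and 3 in its libraries). Mock had 0 counts of Myf6 on both days, as had AGHMT at day 7 and GHMT at day 2. With no filter on low counts, Myod1 and Myf6 were tested too, and neither was called in any of the 17 comparisons.

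Myog, the differentiation factor, was the only family member with counts in every library, and it was called higher in no cocktail. At day 2 it had 7, 11 and 7 counts in Mock, 9, 7 and 14 in GMT, 2, 3 and 3 in GHMT and 1, 2 and 6 in AGHMT. All GHMT and AGHMT libraries of day 2 had fewer counts than any Mock library. The log2 fold change from Mock was -1.40 (SE 0.595, adjusted p = 0.0416) in GHMT, -1.39 (SE 0.576, adjusted p = 0.033) in AGHMT and 0.22 (SE 0.439, adjusted p = 0.679) in GMT. GHMT was also lower than GMT, by 1.61 on the log2 scale (SE 0.573, adjusted p = 0.0242).

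These decreases rest on few counts. DESeq2 gave adjusted p = 0.0627 for GHMT and 0.0505 for AGHMT against Mock. The GHMT call was lost without Mock library 2 (0.132), Mock library 3 (0.0513) or GHMT library 1, 2 or 3 (0.114, 0.0703 and 0.0688). The AGHMT call was lost without Mock library 2 (0.114) or AGHMT library 1 or 2 (0.15 and 0.0858). Against GMT, the GHMT call was lost without GMT library 3 (0.125) or GHMT library 1 or 2 (0.0817 and 0.0501).

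At day 7 Myog had 7, 11 and 4 counts in Mock, 8, 12 and 8 in GMT, 3, 12 and 4 in GHMT and 4, 2 and 8 in AGHMT. Each cocktail overlapped with Mock. The log2 fold changes of 0.24 (SE 0.459), -0.27 (SE 0.5) and -0.60 (SE 0.537) in GMT, GHMT and AGHMT were not called, with adjusted p = 0.649, 0.639 and 0.311.

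**Figure D1:**
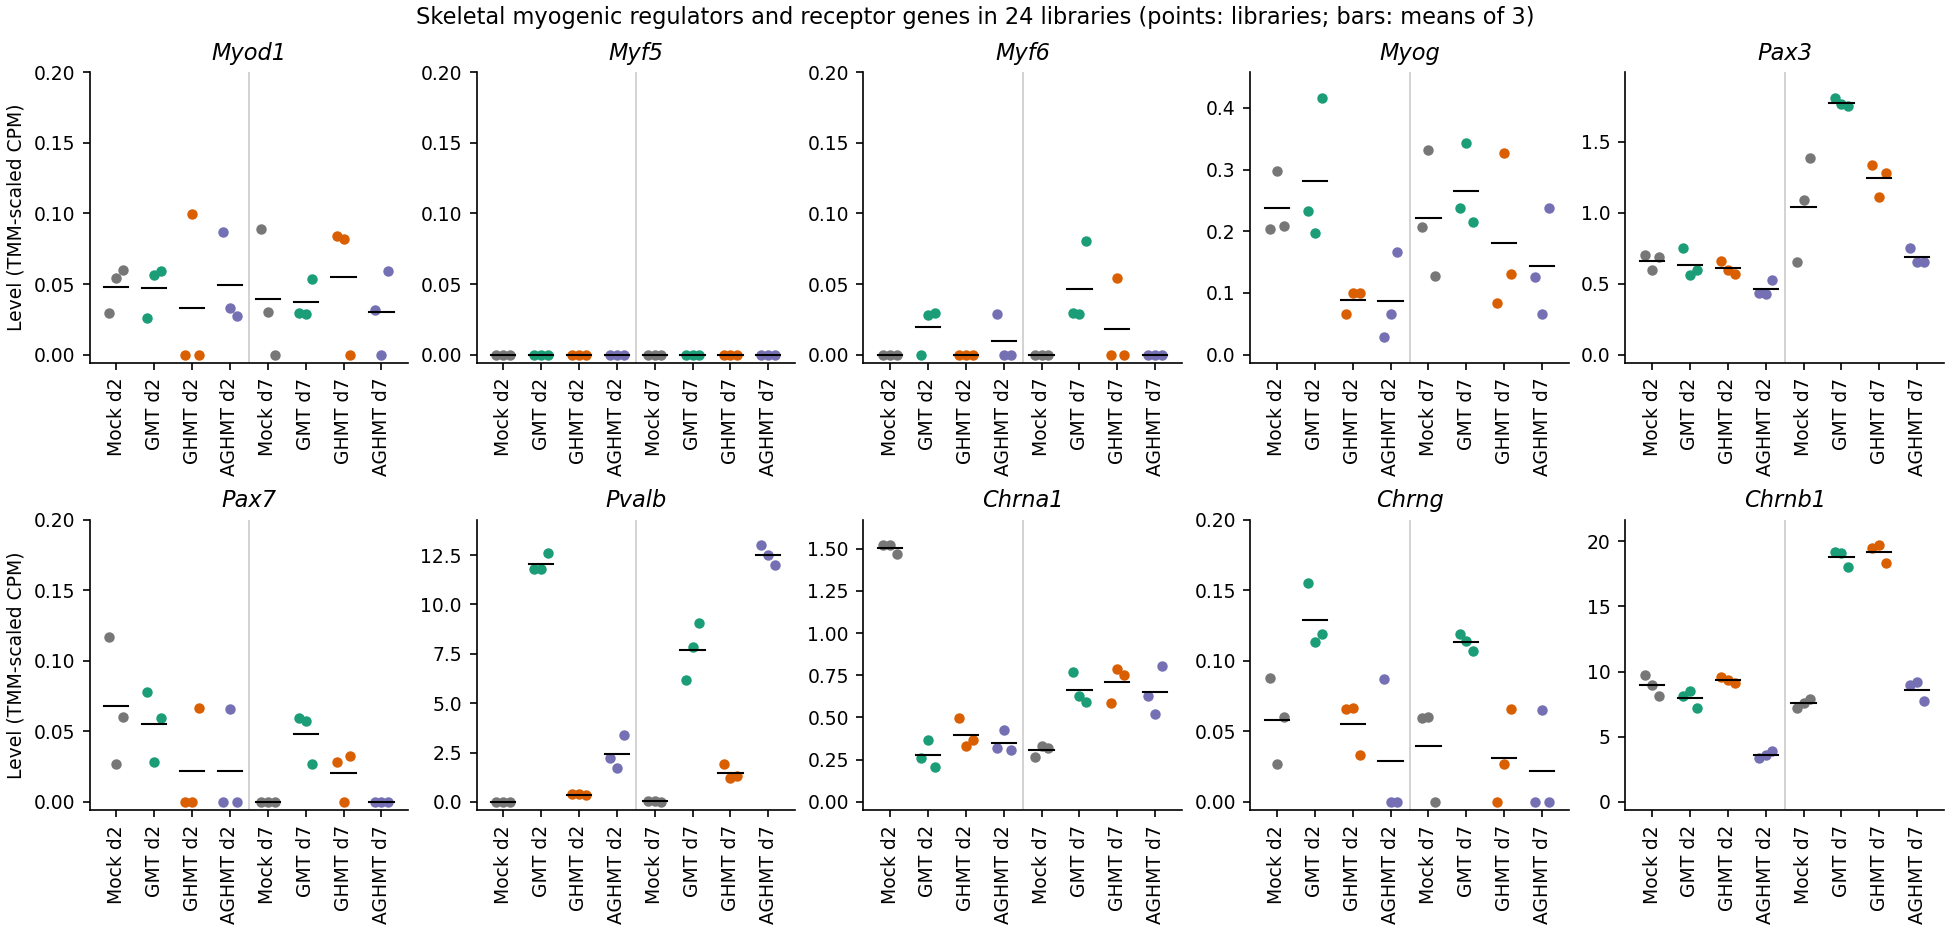
Levels of the 10 genes in 24 libraries, in TMM-scaled CPM on linear axes that differ between panels. Points are libraries, bars are means of 3, and d2 and d7 are days 2 and 7. Chrng reaches at most 0.155 CPM, Myod1, Myf6 and Pax7 stay below that, and Myf5 is at 0 throughout. Pvalb is lowest in Mock and also low in GHMT at day 2, and Chrna1 is highest in Mock at day 2.

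Pax3, a progenitor factor of muscle and also of neural crest, was present at a low level in all groups and moved differently with each cocktail. At day 7 it measured 0.65, 1.09 and 1.39 CPM in Mock, 1.81, 1.77 and 1.75 in GMT, 1.34, 1.11 and 1.28 in GHMT and 0.755, 0.653 and 0.654 in AGHMT. The GMT libraries all lay above Mock, those of GHMT and AGHMT overlapped with it, and Mock itself spread widely. Pax3 rose in GMT, with a log2 fold change of 0.77 (SE 0.174, adjusted p = 3.23e-04), and fell in AGHMT, with -0.59 (SE 0.211, adjusted p = 0.0142). The AGHMT call was lost without Mock library 3 (-0.34, adjusted p = 0.224) and when only the compared libraries were fitted (adjusted p = 0.0584). GHMT differed from Mock by 0.26 (SE 0.186, adjusted p = 0.21), which became a call without Mock library 3 (0.52, adjusted p = 0.0306).

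Among the cocktails of day 7, Pax3 stepped down from GMT to GHMT to AGHMT without overlap. GHMT minus GMT was -0.51 (SE 0.166, adjusted p = 0.0169), and AGHMT minus GHMT was -0.85 (SE 0.203, adjusted p = 0.00107). The first of these calls was lost under DESeq2 (adjusted p = 0.0623) and without GHMT library 2 (0.0791). At day 2 Pax3 measured 0.661 ± 0.057 CPM in Mock, 0.636 ± 0.0996 in GMT, 0.608 ± 0.0483 in GHMT and 0.463 ± 0.0553 in AGHMT (SD, n = 3), and its adjusted p against Mock was 0.887, 0.703 and 0.0807. Markers of neural crest, Schwann cells and melanocytes summed over 9 genes to 42.5 to 45.2 CPM in Mock, 45.2 to 49 in GMT, 47.6 to 51.2 in GHMT and 45.4 to 48.7 in AGHMT at day 7, with none of the 9 at 0 in any of these groups. Of 7 tested, 3 were called higher and 2 lower in GMT, 3 and 2 in GHMT, and 2 and 2 in AGHMT. Markers of epithelial cells summed over 4 genes to 7.27 to 8.6 CPM in Mock, 57 to 60.3 in GMT, 19.6 to 23.8 in GHMT and 6.1 to 6.69 in AGHMT at day 7, so this sum too stepped down from GMT to GHMT to AGHMT. None of the 4 was at 0, and Krt18, a keratin, made up most of the sum, at 4.13 ± 0.672 CPM in Mock, 55.4 ± 1.31 in GMT, 19.9 ± 1.8 in GHMT and 5.3 ± 0.208 in AGHMT (SD, n = 3). Of 2 tested, Krt8 and Krt18, 1 was called higher and 0 lower in GMT, 1 and 1 in GHMT, and 1 and 1 in AGHMT. The defining epithelial genes Epcam and Cdh1, named after their values were seen, had 9 and 16 counts over the GMT libraries. The part of either marker list in the Pax3 levels was not tested.

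Pax7, the marker of satellite cells, the stem cells of muscle, had 24 counts in all and 0 to 4 in a library. Mock held 4, 1 and 2 counts at day 2 and 0, 0 and 0 at day 7. GMT held 3, 1 and 2 and then 2, 2 and 1, GHMT 0, 0 and 2 and then 1, 0 and 1, and AGHMT 0, 2 and 0 and then 0, 0 and 0. With no filter the fall in Mock between the days was the 1 call for Pax7 among 17 comparisons (adjusted p = 0.0382), and it rests on 7 counts against 0. Other markers of satellite cells and myoblasts split. Des, the muscle intermediate filament desmin, which heart muscle also makes, rose from 93.2 ± 5.3 CPM in Mock to 1950 ± 47.8 in AGHMT at day 7 (SD, n = 3, as for the pairs of levels below). Fgfr4, a growth factor receptor, rose from 0.151 ± 0.0486 to 5.91 ± 0.385 CPM, and Chodl was lower in AGHMT (1.15 ± 0.23) than in Mock (48.7 ± 2.28). Chodl had measured 1.81 ± 0.667 CPM in Mock and 0.0685 ± 0.041 in AGHMT at day 2, so its level went up in Mock between the days. Of the 9 markers of that list, 6 were tested, and 3 were called higher and 3 lower in AGHMT.

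Many skeletal sarcomere genes were higher in the cocktails than in Mock on both days. The 17 genes of a skeletal sarcomere list summed to 36.9 to 40 CPM in the Mock libraries of day 7, 123 to 127 in GMT, 104 to 113 in GHMT and 975 to 1040 in AGHMT. The MyoD family summed to 0.127 to 0.362, 0.297 to 0.4, 0.131 to 0.462 and 0.0653 to 0.297 CPM in those groups, and each cocktail overlapped with Mock. Of 15 sarcomere genes tested, 10 rose and 1 fell in GMT (median log2 fold change 1.37), 7 rose and 3 fell in GHMT (0.62), and 11 rose and 1 fell in AGHMT (1.75). Over all genes 37.1% were called higher and 36.0% lower in GMT, 36.3% and 35.6% in GHMT, and 38.6% and 38.1% in AGHMT, with medians of 0.01, 0.00 and 0.00. These shares are the background of every list count against Mock at day 7 given here. The single lower call became 0 in GMT without Mock library 1 or GMT library 1 or 2, and in AGHMT without Mock library 2 or 3 or AGHMT library 1 or 2. At day 2 the sarcomere sums were 52.9 to 64 CPM in Mock, 57.2 to 57.5 in GMT, 51.5 to 59.4 in GHMT and 137 to 162 in AGHMT, so GMT and GHMT overlapped with Mock and AGHMT lay above it. Of 15 tested at day 2, 9 rose and 2 fell in GMT, 9 and 2 in GHMT, and 8 and 2 in AGHMT, beside 33.9% and 33.1%, 34.9% and 33.3%, and 38.0% and 37.4% of all genes. The lower count of day 2 became 1 in GHMT without Mock library 2 or GHMT library 1, and in AGHMT without Mock library 2 or 3 or any 1 AGHMT library. Acta1, skeletal muscle actin, named after its values were seen, fell at day 2 from 45.9 ± 7 CPM in Mock to 5.22 ± 0.416 in GMT, 2.13 ± 0.472 in GHMT and 3.92 ± 0.736 in AGHMT (SD, n = 3). Acta1 thus made up most of the Mock sum of day 2 and little of the cocktail sums. The overlap of the day 2 sums therefore does not mean that the other genes stayed level, since 9 were called higher in GMT and 9 in GHMT. In bulk RNA, fewer cells of a type and less RNA per cell cannot be told apart, so these levels do not say what share of cells carried a gene.

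Myl1, the fast myosin alkali light chain, made up most of the AGHMT sum. At day 7 it measured 0.827, 0.905 and 0.666 CPM in Mock, 40.4, 44.1 and 43.7 in GMT, 19.6, 24.3 and 25.4 in GHMT and 701, 772 and 748 in AGHMT, with no overlap between any of these groups. The log2 fold change in AGHMT was 9.84 (SE 0.136, adjusted p = 1.02e-26). Per kilobase of exon, Myl1 reached 357 CPM in AGHMT at day 7, and the 4 MyoD family genes together 0.112 ± 0.0743 (SD, n = 3). Tnnt3, fast skeletal troponin T, rose from 0.844 ± 0.148 CPM in Mock to 89.1 ± 1.41 in AGHMT. Mybpc1, slow-type myosin-binding protein C, rose from 0.385 ± 0.0677 to 30.9 ± 2.17 CPM, and Actn3, the alpha-actinin of fast fibres, from 3.35 ± 0.362 to 22.1 ± 0.901.

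Some other fast genes did not follow at day 7. These genes, and those of day 2 at the end of this paragraph, were named after their values were seen. Tnnc2, fast troponin C, had 0 counts in Mock and 0, 0 and 0 in GMT, GHMT and AGHMT at day 7. Of its 800 exon bases, 592 are shared with a gene on the opposite strand. Since the strand setting of the counting is not given, these 0 counts cannot show that Tnnc2 stayed off. Tnni2, fast troponin I, measured 0.436 ± 0.1 CPM in Mock and 0.501 ± 0.0913 in AGHMT (adjusted p = 0.596). Atp2a1, the calcium pump of fast fibres, measured 0.232 ± 0.141 and 0.125 ± 0.0542 CPM (adjusted p = 0.16). In GMT at day 2, where 9 of the 15 tested sarcomere genes rose and 2 fell, fast genes went both ways. Myh1 and Myh2, fast myosin heavy chains, rose from 0.417 and 0.038 CPM in Mock to 8.19 and 1.02 (adjusted p = 2.85e-15 and 2.38e-08). Mylpf, a fast myosin light chain, rose from 1.29 to 3.25 CPM (2.26e-07). Tnni2 fell from 0.483 to 0.19 CPM (0.00271), and Tnnt3 was not called (0.845).

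**Figure D2:**
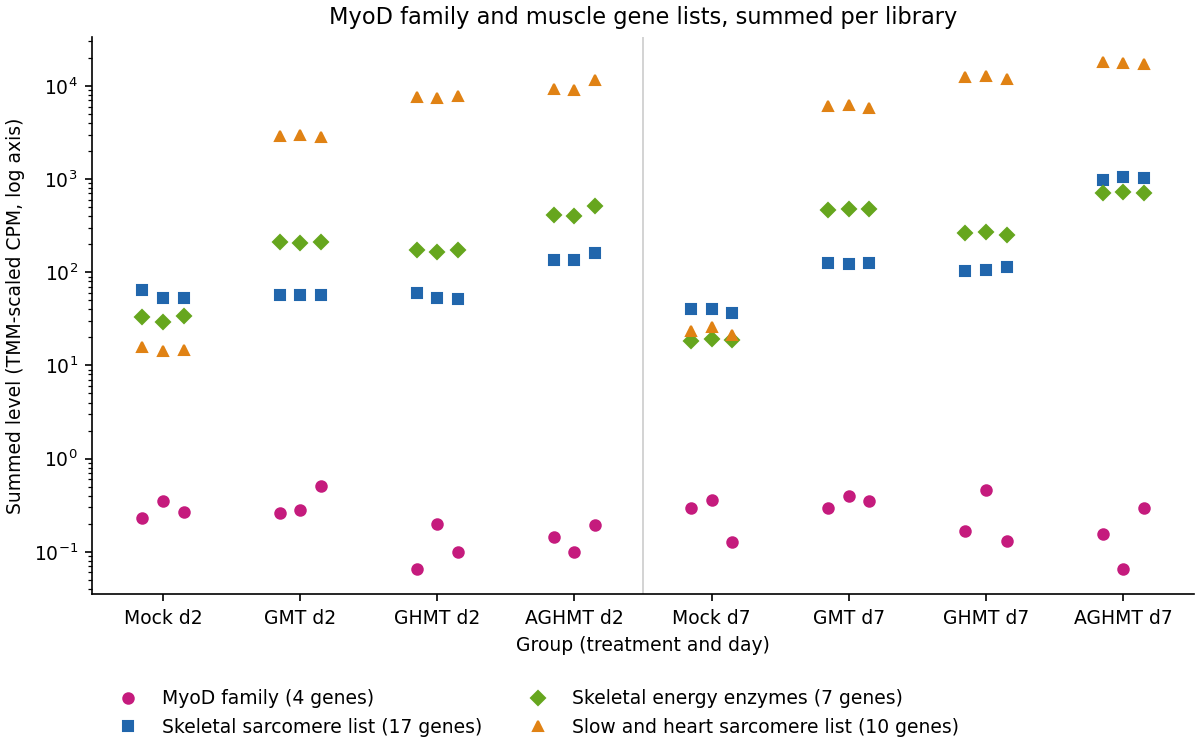
Summed levels per library in TMM-scaled CPM on a log axis, by group, for the MyoD family, skeletal sarcomere genes, skeletal energy enzymes, and slow and heart sarcomere genes. Points are libraries. The MyoD family lies between 0.0653 and 0.505 CPM in all 24 libraries, and the skeletal sarcomere sum reaches 975 to 1040 in AGHMT at day 7.

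Enzymes that fuel muscle contraction rose in every cocktail. All 4 tested genes of a list of 7 were called higher in GMT, GHMT and AGHMT at day 7, with medians of 3.94, 5.06 and 6.86. Over all genes 37.1%, 36.3% and 38.6% were called higher. The list is named for skeletal muscle, but its genes need not be confined to it. The same holds for the other skeletal and myoblast lists. Pygm, muscle glycogen phosphorylase, rose from 0.549 ± 0.0678 CPM in Mock to 166 ± 3.14 in AGHMT, Pgam2, muscle phosphoglycerate mutase, from 1.71 ± 0.114 to 471 ± 12.6, and Phkg1, a phosphorylase kinase subunit, from 0.485 ± 0.128 to 24 ± 2.05. Eno3, muscle enolase, ran the other way over the cocktails, at 287 ± 5.62 CPM in GMT, 88.7 ± 1.35 in GHMT and 53 ± 2.33 in AGHMT, against 16 ± 0.279 in Mock. Ckm, muscle creatine kinase, named after its values were seen, had 0, 4, 2 and 4 counts in Mock, GMT, GHMT and AGHMT.

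Of 10 tested genes for skeletal excitation-contraction coupling, which links the membrane signal to calcium release, 4 rose and 1 fell in GMT at day 7, 5 and 1 in GHMT, and 6 and 1 in AGHMT. The medians were 0.60, 0.94 and 1.67. Over all genes 37.1% and 36.0%, 36.3% and 35.6%, and 38.6% and 38.1% were called higher and lower. The 4 higher calls in GMT are thus near the share over all genes. The lower call in GHMT became 0 under DESeq2, with no filter, and without Mock library 1 or 2 or GHMT library 1. Ryr1, the calcium release channel of skeletal muscle, went from 0.505 ± 0.0897 CPM in Mock to 1.2 ± 0.191 in GMT, 1.71 ± 0.265 in GHMT and 33 ± 3.27 in AGHMT, where the log2 fold change was 6.01 (SE 0.139, adjusted p = 2.64e-22). Jph1, which ties the surface membrane to the calcium store, rose from 4.61 ± 0.396 to 32.3 ± 1.24 CPM in AGHMT. Cacng1 and Cacna1s, subunits of the skeletal calcium channel, reached 0.651 ± 0.157 and 0.548 ± 0.13 CPM there. Cacna1s and Jph1 share 1309 and 34 exon bases with a gene on the opposite strand, and Ryr1 shares 864 and 50 with a pair of such genes. Among other genes named here, Atp2a1, Phkg1, Tnnc2 and Ckm share 763, 630, 592 and 451 such bases, and Mybpc1 and Des share 252 and 220. Myh1 and Myh2 share 515 and 237. Dysf shares 352 and 105 with a pair of genes, as does Id4 with 82 and 171. Myh6, Krt8, Ache and Itga7 share 114, 101, 98 and 9, and Colq shares 199 with a gene on its own strand. Since the strand setting of the counting is not given, reads of these pairs cannot be told apart, and the levels of these genes are uncertain to that extent.

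Sarcomere genes of slow and heart muscle reached far higher sums than the skeletal list. Over 10 genes they came to 21.4 to 26.1 CPM in Mock, 5860 to 6280 in GMT, 11800 to 12900 in GHMT and 17100 to 18000 in AGHMT at day 7, with 8, 8 and 8 of 10 called higher. Tnnt2, cardiac troponin T, rose from 17.6 ± 1.43 CPM in Mock to 10160 ± 345 in AGHMT, and Myh6, the alpha heavy chain of heart myosin, from 0.681 ± 0.323 to 4610 ± 176.

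Pvalb was near 0 in Mock, with 0, 0 and 0 counts at day 2 and 1, 2 and 0 at day 7, and rose in all cocktails on both days. At day 2 it measured 11.8, 11.8 and 12.6 CPM in GMT, 0.397, 0.398 and 0.333 in GHMT and 2.23, 1.71 and 3.38 in AGHMT. At day 7 it measured 6.17, 7.82 and 9.08 CPM in GMT, 1.93, 1.22 and 1.31 in GHMT and 13, 12.5 and 12 in AGHMT. On each day GHMT was the lowest of the cocktails, and the libraries of the 3 cocktails did not overlap. Against 3 counts per Mock library, Pvalb was at least 140-fold higher in GMT, at least 4.36-fold higher in GHMT and at least 28.3-fold higher in AGHMT at day 2. Against the 3 Mock counts of day 7, the ratio was 254 (95% exact interval for counting error only, 86.7 to 1240) in GMT, 49.1 (16.5 to 241) in GHMT and 410 (140 to 1990) in AGHMT. The fitted log2 fold change of day 7 was 7.82 in GMT, 5.46 in GHMT and 8.52 in AGHMT, and it hung on single Mock libraries. With 1 library left out it ranged from 7.311 to 8.665, 4.947 to 6.3 and 8 to 9.353, lowest without Mock library 3 and highest without Mock library 2 in each cocktail. All 6 differences from Mock were called, with adjusted p = 3.84e-16, 5.95e-05 and 3.64e-11 at day 2 and 1.2e-14, 1.08e-08 and 3.9e-16 at day 7 for GMT, GHMT and AGHMT.

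Pvalb was lower in GHMT than in GMT and higher in AGHMT than in GHMT on both days. GHMT minus GMT was -4.99 (SE 0.237, adjusted p = 3.02e-14) at day 2 and -2.37 (SE 0.185, adjusted p = 3.26e-10) at day 7 on the log2 scale. AGHMT minus GHMT was 2.71 (SE 0.31, adjusted p = 1.24e-07) and 3.06 (SE 0.177, adjusted p = 1.45e-12). From day 2 to day 7 Pvalb changed by -0.64 (SE 0.136, adjusted p = 3.89e-04) in GMT, 1.98 (SE 0.343, adjusted p = 4.35e-05) in GHMT and 2.33 (SE 0.163, adjusted p = 2.9e-11) in AGHMT, so it fell in GMT and rose in the other cocktails. Markers of neurons summed over 8 genes to 42.5 to 44.8 CPM in Mock, 124 to 139 in GMT, 217 to 226 in GHMT and 251 ± 1.68 (SD, n = 3) in AGHMT at day 7. Tubb3, a tubulin gene, made up most of this sum in each of these groups, so the sum mainly follows that gene. Of the 8, 7 were called higher in GMT, 4 in GHMT and 6 in AGHMT, and 1 was called lower in each. Gad1, a marker of inhibitory neurons, had 0 counts in Mock, 30 in GMT, 230 in GHMT and 63 in AGHMT. The part of these markers in the Pvalb levels was not tested.

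Sequence around the annotated starts shows which of the genes carry E-boxes there. Windows from 250 bases before to 50 bases after the start, from RefSeq on GRCm38.p6, matched 7 of the 10 genes in 8 windows, and Myod1, Myf6 and Pax3 had none. A Pvalb window is shown because it is the only one of the 8 with a match to the MEF2 consensus. It holds no E-box. It lies at chr15:78206351-78206650 on the minus strand, at the 5′ end of the gene, and the capitals mark a match to the MEF2 consensus that begins 180 bases before the start.

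Pvalb: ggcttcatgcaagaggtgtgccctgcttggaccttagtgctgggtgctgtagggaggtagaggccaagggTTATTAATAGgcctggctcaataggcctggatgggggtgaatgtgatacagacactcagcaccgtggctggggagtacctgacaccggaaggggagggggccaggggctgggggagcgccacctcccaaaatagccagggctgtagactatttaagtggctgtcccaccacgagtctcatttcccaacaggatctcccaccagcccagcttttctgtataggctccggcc

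A match to the MEF2 consensus was present in 3.19% of 32851 RefSeq windows and an E-box in 72.3%, searched on both strands. A further Pvalb start, downstream of that one, had an E-box of the form CATGTG 111 bases before it and another, of the form CATATG, from base 18 after it. Counts per gene do not say which of these starts was used. The windows of Myf5 and Pax7 held no E-box and no MEF2 match. Only exact matches to the MEF2 consensus, whose last base is A or G, were counted. The Myog window printed below holds ctatatttat, which departs from that consensus only at its last base and was not counted. A match describes letters in a window and measures no binding.

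The windows of the 3 receptor genes and of Myog are shown because they all hold E-boxes, while their levels differ widely. Chrna1 lies at chr2:73580289-73580588 (minus strand), Chrng at chr1:87205561-87205860 (plus strand), Chrnb1 at chr11:69795888-69796187 (minus strand) and Myog at chr1:134289754-134290053 (plus strand). The capitals mark the E-boxes.

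Chrna1: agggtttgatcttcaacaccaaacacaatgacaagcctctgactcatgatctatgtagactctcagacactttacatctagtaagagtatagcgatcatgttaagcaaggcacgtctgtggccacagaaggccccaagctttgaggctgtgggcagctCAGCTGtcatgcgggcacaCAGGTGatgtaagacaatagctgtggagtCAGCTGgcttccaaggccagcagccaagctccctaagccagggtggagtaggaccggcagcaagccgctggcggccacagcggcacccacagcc

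Chrng: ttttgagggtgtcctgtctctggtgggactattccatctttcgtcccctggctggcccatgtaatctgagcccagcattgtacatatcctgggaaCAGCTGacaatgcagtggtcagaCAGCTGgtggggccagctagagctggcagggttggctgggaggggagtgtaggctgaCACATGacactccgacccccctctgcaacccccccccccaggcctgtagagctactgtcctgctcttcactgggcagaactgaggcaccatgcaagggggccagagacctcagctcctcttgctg

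Chrnb1: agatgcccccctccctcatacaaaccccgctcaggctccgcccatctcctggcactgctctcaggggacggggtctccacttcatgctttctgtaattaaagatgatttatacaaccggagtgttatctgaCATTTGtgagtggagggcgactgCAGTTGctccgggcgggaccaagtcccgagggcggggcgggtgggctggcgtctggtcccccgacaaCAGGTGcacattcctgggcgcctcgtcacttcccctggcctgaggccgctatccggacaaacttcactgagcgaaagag

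Myog: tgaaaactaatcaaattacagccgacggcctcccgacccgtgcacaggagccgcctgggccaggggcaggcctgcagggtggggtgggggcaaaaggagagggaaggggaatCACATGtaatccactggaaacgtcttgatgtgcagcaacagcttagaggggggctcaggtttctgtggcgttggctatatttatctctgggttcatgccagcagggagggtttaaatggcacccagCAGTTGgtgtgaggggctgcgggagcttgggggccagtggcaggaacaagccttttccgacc

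The E-box form CAGCTG, found in 16.3% of all windows, lay 92 and 44 bases before the Chrna1 start and 155 and 132 bases before the Chrng start. At least 2 copies of it were present in 1.9% of all windows, and at least 3 E-boxes of any form in 17.6%. The form CAGGTG, which with its reverse complement is in 20.2% of windows, lay 73 bases before the Chrna1 start and 29 bases before the Chrnb1 start. Chrnb1 held further E-boxes 119 and 96 bases before its start, Chrng 75 bases before, and Myog 138 and 12 bases before. The GATA motif AGATAA, present on either strand in 11.2% of windows, began 127 bases before the Chrnb1 start and 58 bases before the Myog start. The T-box motif GGTGTGA, in 3.98% of windows, began 7 bases before the Myog start, where its first base is the last base of an E-box.

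**Figure D3:**
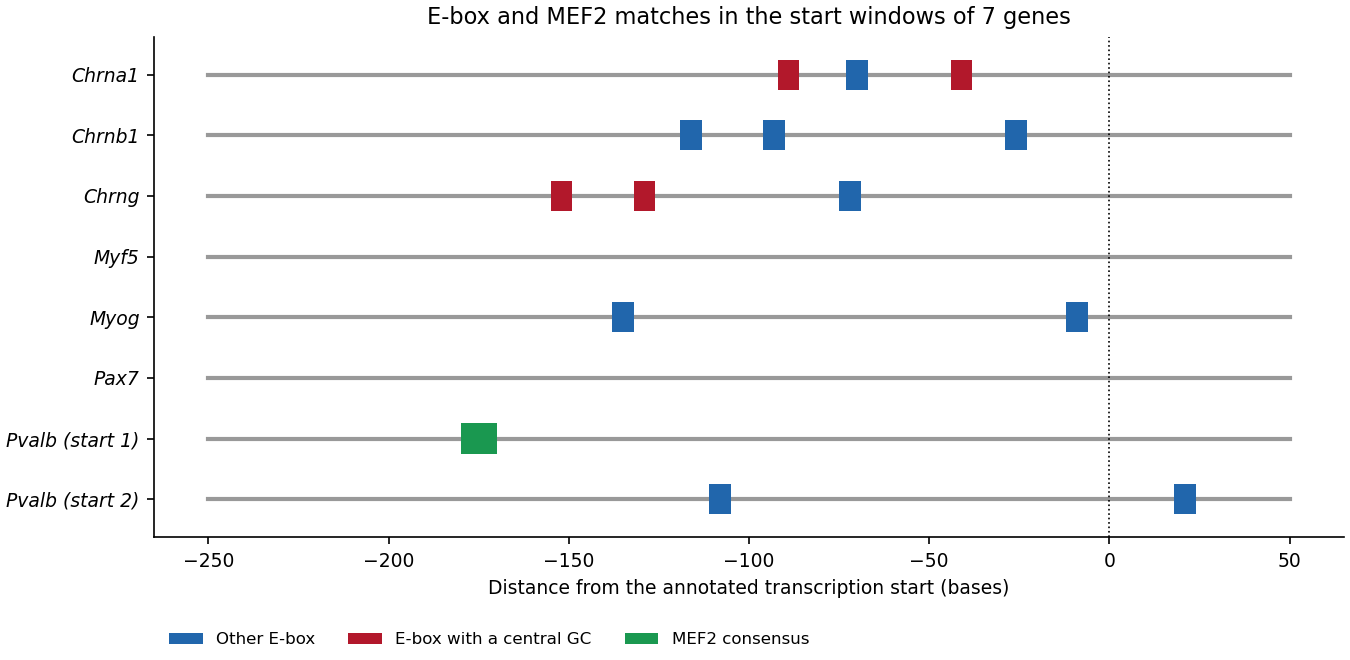
Matches to the E-box and to the MEF2 consensus by distance from the annotated start, in bases, for 8 RefSeq windows of 7 genes. Chrna1, Chrng and Chrnb1 hold 3 E-boxes each, 1 Pvalb window holds none and has 1 MEF2 match, and Myf5 and Pax7 hold neither.

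Chrna1, the alpha1 subunit that binds acetylcholine, was lower in every cocktail at day 2 and higher in every cocktail at day 7, against a Mock level that itself fell in between. At day 2 it measured 1.52, 1.52 and 1.47 CPM in Mock, 0.258, 0.367 and 0.208 in GMT, 0.496, 0.331 and 0.366 in GHMT and 0.319, 0.427 and 0.305 in AGHMT. All cocktail libraries lay below all Mock libraries. The log2 fold changes from Mock were -2.42 (SE 0.21, adjusted p = 1.95e-10), -1.90 (SE 0.203, adjusted p = 8.42e-09) and -2.10 (SE 0.204, adjusted p = 1.12e-09) for GMT, GHMT and AGHMT. At day 7 it measured 0.266, 0.332 and 0.317 CPM in Mock, 0.771, 0.628 and 0.591 in GMT, 0.588, 0.788 and 0.754 in GHMT and 0.629, 0.522 and 0.803 in AGHMT. All cocktail libraries now lay above all Mock libraries, with log2 fold changes of 1.11 (SE 0.247, adjusted p = 3.99e-04), 1.21 (SE 0.244, adjusted p = 1.01e-04) and 1.096 (SE 0.251, adjusted p = 0.000572). Every cocktail library of day 7 was still below every Mock library of day 2.

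Between the days Chrna1 fell in Mock by 2.29 on the log2 scale (SE 0.211, adjusted p = 1.4e-09). It rose by 1.24 (SE 0.246, adjusted p = 1.6e-04) in GMT, 0.83 (SE 0.235, adjusted p = 0.00922) in GHMT and 0.91 (SE 0.243, adjusted p = 0.00478) in AGHMT. The calls in GHMT and AGHMT were lost without GHMT library 2 of day 2 (adjusted p = 0.0534) and without AGHMT library 3 of day 7 (0.0624). Neither GHMT against GMT nor AGHMT against GHMT was called for Chrna1 on either day, and AGHMT was not compared with GMT. GHMT minus GMT was 0.51 (SE 0.284, adjusted p = 0.24) at day 2 and 0.10 (SE 0.203, adjusted p = 0.782) at day 7, and AGHMT minus GHMT was -0.20 (SE 0.274, adjusted p = 0.649) and -0.11 (SE 0.208, adjusted p = 0.739).

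Chrng, the gamma subunit of the receptor before birth, had 49 counts in all. GMT had 6, 4 and 4 counts at day 2 and 4, 4 and 4 at day 7, and Mock had 3, 1 and 2 and 2, 2 and 0. GHMT had 2, 2 and 1 and 0, 1 and 2, and AGHMT 3, 0 and 0 and 0, 2 and 0. Every GMT library had more counts than any other library of its day, but with no filter the gene was called in none of the 17 comparisons.

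Chrnb1, the beta1 subunit, had the highest level per length of the 3 receptor genes in every group. Its group means ran from 1.43 to 7.57 CPM per kilobase of exon, against 0.0633 to 0.342 for Chrna1 and 0.00523 to 0.031 for Chrng. At day 7 Chrnb1 measured 7.24, 7.6 and 7.93 CPM in Mock, 19.2, 19.1 and 18 in GMT, 19.5, 19.7 and 18.3 in GHMT and 8.94, 9.17 and 7.76 in AGHMT. GMT and GHMT lay above Mock and AGHMT overlapped with it. The log2 fold changes from Mock were 1.30 (SE 0.0744, adjusted p = 3.74e-14), 1.34 (SE 0.0744, adjusted p = 2.42e-14) and 0.18 (SE 0.0812, adjusted p = 0.0442). The AGHMT call was lost with no filter (adjusted p = 0.161), with only the compared libraries (0.0561), without Mock library 1 or 2 (0.168 and 0.0902) and without AGHMT library 1 or 2 (0.13 and 0.175).

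At day 2 Chrnb1 measured 9.77, 8.96 and 8.11 CPM in Mock, 8.16, 8.51 and 7.21 in GMT, 9.62, 9.37 and 9.13 in GHMT and 3.39, 3.62 and 3.88 in AGHMT. The GMT libraries lay below those of GHMT, and both groups overlapped with Mock. The AGHMT libraries lay below all the others of that day, with a log2 fold change from Mock of -1.30 (SE 0.0893, adjusted p = 1.5e-12). GMT and GHMT gave -0.17 (SE 0.0785, adjusted p = 0.0651) and 0.07 (SE 0.0786, adjusted p = 0.465). The GMT difference became a call without Mock library 3 (adjusted p = 0.0184) or GMT library 2 (0.0321).

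AGHMT was below GHMT for Chrnb1 on both days, by 1.37 (SE 0.0902, adjusted p = 3.12e-12) at day 2 and 1.16 (SE 0.0734, adjusted p = 1.8e-12) at day 7 in log2 units, the comparison in which Pvalb rose. GHMT minus GMT was 0.23 (SE 0.0795, adjusted p = 0.0191) at day 2 and 0.03 (SE 0.067, adjusted p = 0.748) at day 7. The day 2 call was lost without GMT library 3 (adjusted p = 0.121) or GHMT library 1 (0.0644) and with no filter (0.0831). For GHMT against GMT, 3 of the 5 tested members were called at day 2 and 2 at day 7, beside 44.8% and 37.5% of all genes. For AGHMT against GHMT the counts were 2 and 3, beside 52.7% and 48.7%.

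**Figure D4:**
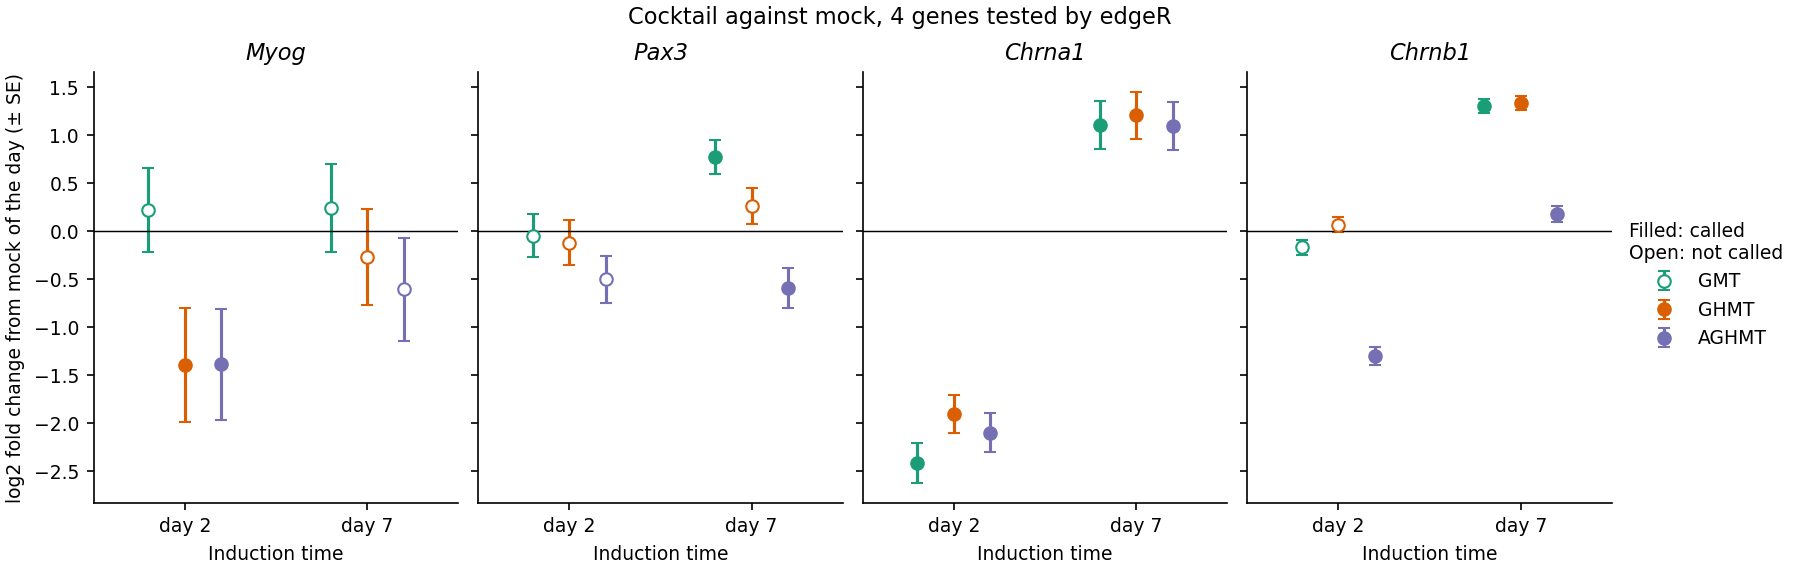
Log2 fold change of each cocktail from the Mock of its day, with SE bars, for Myog, Pax3, Chrna1 and Chrnb1 at days 2 and 7. Filled points were called by edgeR and open points were not. Chrna1 lies below 0 in all cocktails at day 2 and above 0 in all at day 7.

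From day 2 to day 7 Chrnb1 rose by 1.23 (SE 0.073, adjusted p = 5.73e-13) in GMT, 1.03 (SE 0.0732, adjusted p = 1.51e-11) in GHMT and 1.25 (SE 0.0906, adjusted p = 1.78e-11) in AGHMT, and fell by 0.24 (SE 0.08, adjusted p = 0.0138) in Mock. The Mock call was lost without Mock library 1 of day 2 (adjusted p = 0.1) or of day 7 (0.0637) and with no filter (0.0923). Pax3 rose by 1.47 (SE 0.187, adjusted p = 4.15e-07) in GMT, 1.03 (SE 0.211, adjusted p = 2.47e-04) in GHMT and 0.65 (SE 0.209, adjusted p = 0.0107) in Mock, and in AGHMT its change of 0.56 (SE 0.248, adjusted p = 0.0691) was not called. The Mock call for Pax3 was lost without Mock library 3 of day 7 (0.39, adjusted p = 0.194) and with only the compared libraries (0.0629). Myog was not called between the days in any treatment. Of the 5 tested members, 3 were called in Mock, 4 in GMT, 4 in GHMT and 3 in AGHMT, beside 55.5%, 51.9%, 50.2% and 54.5% of all genes. The test of whether a cocktail's difference from Mock changed between the days called 3 members for GMT, 2 for GHMT and 2 for AGHMT, beside 49.5%, 49.3% and 50.9% of all genes.

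The rest of the muscle receptor and of the nerve-muscle synapse was mixed. The delta and epsilon subunits, named after their values were seen, were near 0 in every group of day 7. Chrnd had 5, 2, 1 and 1 counts in Mock, GMT, GHMT and AGHMT, and Chrne had 4, 2, 2 and 1. Of 9 tested genes of a nerve-muscle junction list, 6 rose and 2 fell in GMT, 7 and 2 in GHMT, and 5 and 3 in AGHMT, with medians of 1.00, 0.66 and 0.87. Over all genes 37.1% and 36.0%, 36.3% and 35.6%, and 38.6% and 38.1% were called higher and lower. Ache, the acetylcholinesterase that ends the signal, rose from 0.27 ± 0.227 CPM in Mock to 59.2 ± 2.1 in GMT, 95.5 ± 1.83 in GHMT and 132 ± 4.67 in AGHMT. Colq, the collagen tail that anchors it, rose from 0.729 ± 0.0663 to 77.7 ± 5.09, 50.6 ± 1.13 and 34.9 ± 1.11 CPM, the reverse order. Lrp4, the agrin receptor, rose from 18.1 ± 1.84 to 53.8 ± 3.34 CPM in AGHMT, and Lamb2, a laminin of the synaptic basal lamina, was lower in AGHMT (278 ± 0.507) than in Mock (468 ± 28.8). Lamb2 measured 215 ± 10.2 CPM in Mock at day 2, so its level went up in Mock between the days.

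Subunits of neuronal acetylcholine receptors were mostly higher in the cocktails than in Mock at day 7, where the Mock level had fallen since day 2. Of 8 tested, 7 rose and 1 fell in GMT, 6 and 1 in GHMT, and 5 and 1 in AGHMT. The shares called higher over all genes were 37.1%, 36.3% and 38.6%. The AGHMT median was 4.89, or 2.43 with the 2 genes at 0 in Mock set to their bound. Chrnb3 had 2 counts in the Mock libraries and 914 in AGHMT at day 7, Chrnb4 had 2 and 327, and Chrna3 had 0 and 54. Chrna4 rose from 0.0912 ± 0.0291 to 0.698 ± 0.0225 CPM. Over 11 genes the subunits summed to 2.84 to 3.36 CPM in Mock, 5.59 to 5.87 in GMT, 6.44 to 6.95 in GHMT and 15.6 to 17.3 in AGHMT at day 7. The neuron marker sums given beside Pvalb were also above Mock in every cocktail at day 7, but with other steps between the cocktails. At day 2 the subunit sum of each cocktail overlapped with Mock, and the neuron marker sums lay above it. The Mock subunit sum was 4.74 to 5.57 CPM at day 2, so it went down in Mock between the days. Of the 8 tested subunits, 1 was called higher and 4 lower in Mock at day 7 than at day 2. Over all genes these shares were 29.7% and 25.8%. The part of neuron markers in the subunit levels was not tested.

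**Figure D5:**
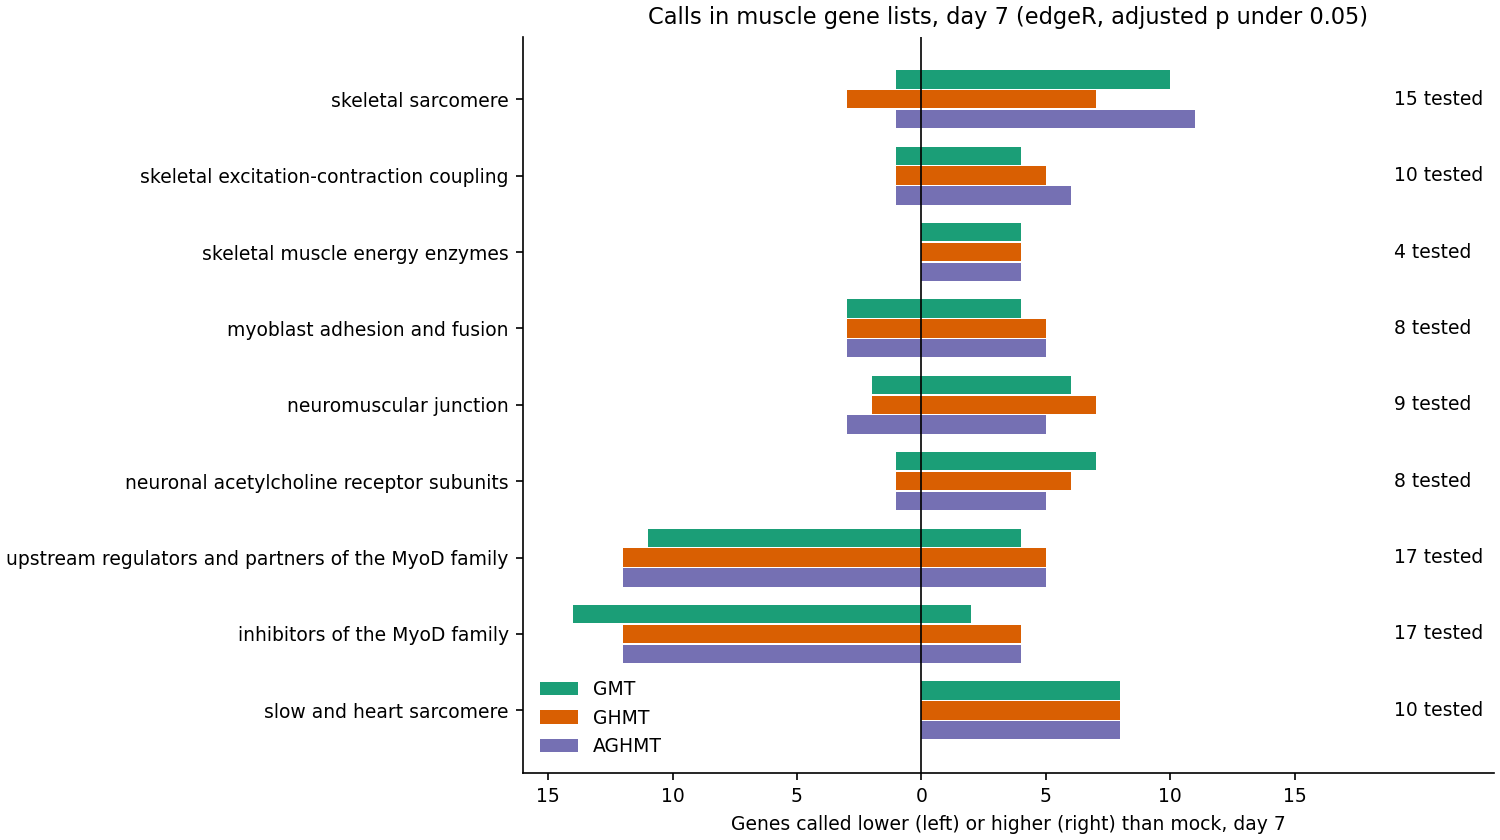
Number of genes called lower (left) or higher (right) than Mock at day 7 in 9 gene lists, for GMT, GHMT and AGHMT, with the number tested at the right. Partners and inhibitors of the MyoD family each show 12 lower calls in AGHMT, and the 4 tested energy enzymes are all called higher.

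Both the partners and the inhibitors of the MyoD family were mostly lower in AGHMT than in Mock at day 7, against Mock levels that themselves moved between the days. Of 17 tested upstream regulators and partners, 4 were called higher and 11 lower in GMT at day 7, 5 and 12 in GHMT, and 5 and 12 in AGHMT, with medians of -1.12, -1.19 and -1.01. In Mock itself 8 of them were called higher and 5 lower at day 7 than at day 2, beside 29.7% and 25.8% of all genes. Tcf3 and Tcf4, E-proteins that pair with MyoD, measured 127 ± 10.2 and 254 ± 4.54 CPM in Mock and 38.9 ± 2.12 and 90.1 ± 2.47 in AGHMT at day 7. Their Mock levels of day 2 were 136 ± 0.468 and 174 ± 6.33 CPM. Eya1 and Eya4, cofactors that act upstream of the MyoD family, measured 11.9 ± 0.737 and 22.2 ± 1.08 CPM in Mock and 0.801 ± 0.1 and 3.72 ± 0.302 in AGHMT at day 7, after 7.48 ± 0.126 and 18.8 ± 1.41 in Mock at day 2.

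Of 17 tested inhibitors, 2 were called higher and 14 lower in GMT at day 7, 4 and 12 in GHMT, and 4 and 12 in AGHMT. In Mock, 11 of them were called higher and 5 lower at day 7 than at day 2. The inhibitors summed to 710 to 745 CPM in Mock and 502 to 511 in AGHMT at day 2, and to 805 to 895 and 468 to 474 at day 7, so AGHMT lay below Mock on both days. Id4, which takes up E-proteins, measured 8.2 ± 0.386 CPM in Mock and 3.86 ± 0.5 in AGHMT at day 2, and 38.1 ± 1.35 and 5.2 ± 0.59 at day 7. Twist1, a repressor of MyoD, measured 70.5 ± 4.86 CPM in Mock at day 2, and 101 ± 4.05 in Mock and 17.3 ± 0.421 in AGHMT at day 7. The same 3 levels were 67.9 ± 1.39, 106 ± 1.68 and 17.4 ± 0.535 CPM for Mdfic and 62.3 ± 2.03, 43.1 ± 2.55 and 10.4 ± 0.562 for Snai2. All 4 were called lower in AGHMT than in Mock at day 7.

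Of 8 tested genes of myoblast adhesion and fusion, 5 rose and 3 fell in AGHMT at day 7, beside 38.6% and 38.1% of all genes. Jam2, an adhesion molecule, rose from 13.9 ± 0.86 CPM in Mock to 526 ± 4.78, Itga7, a laminin receptor of muscle, from 40.2 ± 4.12 to 333 ± 10.6, Dysf, a membrane repair protein, from 38.5 ± 2.49 to 301 ± 8.77, and Cav3, the muscle caveolin, from 1.59 ± 0.353 to 27.5 ± 1.7. Tmem8c, an older symbol of the myoblast fusion gene Mymk, was named after its values were seen and had 17, 10, 17 and 9 counts in Mock, GMT, GHMT and AGHMT.

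Markers of the starting culture differed between the same groups and also moved in Mock. Of 10 fibroblast markers 9 were called lower in AGHMT than in Mock at day 7, beside 38.1% of all genes, with none at 0. Their sum was 35400 to 38700 CPM in Mock and 20700 to 22100 in AGHMT at day 2, and 66900 to 72600 and 14100 to 14800 at day 7. Macrophage markers summed to 40.2 to 42.8 CPM in Mock and 11.7 to 14.3 in AGHMT at day 2, and to 255 to 374 and 35.8 to 47.4 at day 7, with 6 of 6 called lower at day 7 and none at 0. Both sums were thus higher in Mock at day 7 than at day 2, and the macrophage sum was higher in AGHMT too. The part of these cells in the lower levels of partners and inhibitors was not tested.

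The genes most like each member in pattern were sought among 13299 genes, by the 8 group means of log2 CPM, each centred on its own mean. Likeness is the root mean square difference in log2 units and describes pattern only. Pvalb was most like Sbk3 (0.887), Mlana (1.09) and Wnk4 (1.1), which unlike Pvalb were highest in GMT at day 7, over a Pvalb range of 7.72. Chrna1, with a range of 2.24, was most like Ankk1 (0.259), Cd40 (0.28) and Itga4 (0.284), which were also highest in Mock at day 2. Chrnb1, with a range of 2.38, was most like Hspb1 (0.227), Crim1 (0.23) and Cd44 (0.262), all lowest in AGHMT at day 2 as Chrnb1 was. Pax3, with a range of 1.82, was most like Sh3bp5 (0.231), Nol3 (0.24) and Synpo (0.244), all highest in GMT at day 7 as Pax3 was. No gene of the MyoD family reached the group mean of 1 CPM that this comparison needed.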

How the data were processed

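RNA from 24 libraries, 3 in each of 8 groups, was taken 2 or 7 days into induction, per the labels' protocols. Per the submitters' processing notes, the tools included featureCounts 1.4.6, HISAT2 2.0.1, DESeq2 1.6.3 and Trim Galore 0.4.1, and the build was GRCm38. The strand setting and annotation release are not given there or in the labels. The authors' deposited table holds raw whole-number counts per gene, and their deposited table of log values was not used. Counts were scaled by TMM. The main test was the quasi-likelihood test of edgeR 4.0.16 in R 4.3.3, two-sided, fitted to all 24 libraries at once with filterByExpr and 1 mean per group (16 residual degrees of freedom). The 17 comparisons set each cocktail against Mock, GHMT against GMT and AGHMT against GHMT on each day, day 7 against day 2 in each treatment, and the cocktail effects between days. Exon lengths came from GENCODE M21, which matched 47601 of the 47967 genes and in which no member shares exon bases with another gene, although some list genes do. No replicate pair agreed within sampling noise (chi-square per degree of freedom 1.49 or more). The code was tested on simulated data.

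The members and gene lists were chosen with earlier results of these data known. The genes named are the members, up to 4 genes of each list by smallest adjusted p in AGHMT against Mock at day 7, and the 3 genes most like each member with a group mean of at least 1 CPM (prior count 2). Other names are marked as chosen after their values were seen. Alternatives were RLE factors, DESeq2 1.42.0, no filter (34021 genes), only the compared libraries, the replicate number as a block, and each library left out in turn.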

Additional observations from a re-analysis of the deposited data

Results flagged for a closer look

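For 7 results, the difference of a cocktail from Mock changed between day 2 and day 7 by edgeR's test of that change. For Chrna1 the day 7 effect minus the day 2 effect was 3.52 (SE 0.326, adjusted p = 2.01e-09) in GMT, 3.11 (SE 0.319, adjusted p = 1.14e-08) in GHMT and 3.20 (SE 0.326, adjusted p = 9.27e-09) in AGHMT on the log2 scale, with effects of opposite sign on the 2 days. The fall of Chrna1 in Mock between the days enters all 3 values. For Chrnb1 it was 1.47 (SE 0.108, adjusted p = 3.24e-11), 1.27 (SE 0.108, adjusted p = 4.59e-10) and 1.48 (SE 0.121, adjusted p = 1.82e-10). For Pax3 it was 0.82 (SE 0.287, adjusted p = 0.0203) in GMT. That call was lost under DESeq2 (adjusted p = 0.0549), with no filter (0.0731), without GMT library 2 of day 2 (0.0517) and without Mock library 1 of day 7 (0.56, adjusted p = 0.129). The cocktails share the Mock libraries, so these values are not independent of each other.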

How the results depend on the processing

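RLE factors moved the median log2 fold change of all genes by at most 0.0145 and changed no call on a member. With only the compared libraries, 2 members in place of 4 were called for AGHMT against Mock at day 7. For GHMT against GMT at day 7, 1 member in place of 2 was called under DESeq2, and 1 to 2 with 1 library left out (1 without GHMT library 2). At day 2 the range was 1 to 3 (1 without GMT library 3 or GHMT library 1). The replicate numbers showed little sign of pairing the libraries: correlations of same-numbered deviations ran from -0.0738 to 0.274, and 1 of 42 exceeded 0.1. That 1 was library 3 in AGHMT against GHMT at day 2, where libraries 1 and 2 gave 0.0937 and 0.072. Such correlations cannot show that no batch was shared. With the replicate number as a block, Chrnb1 in GMT against Mock at day 2 became a call (-0.17, adjusted p = 0.0484), and the uncalled day difference of the GMT effect on Myog turned from 0.02 to -0.003. No other call on a member changed with the block. With no filter that Myog value was -0.024. Leaving out 1 library turned the sign of uncalled values, with these ranges. For Myog they were -0.247 to 0.42 for that difference, -0.496 to 0.171 in Mock and -0.299 to 0.283 in GMT between days, -0.143 to 0.425 and -0.027 to 0.64 for GMT against Mock at days 2 and 7, -1.05 to 0.128 for GHMT against Mock at day 7, and -0.873 to 0.435 and -0.913 to 0.447 for AGHMT against GHMT at days 2 and 7. For Pax3 they were -0.187 to 0.032 for GMT against Mock and -0.149 to 0.069 for GHMT against GMT at day 2, and -0.353 to 0.159 for the day difference of the AGHMT effect. At day 7 they were -0.297 to 0.018 for Chrna1 in AGHMT against GHMT and -0.088 to 0.244 for Mybpc1 in GHMT against Mock. The cause was not tested. The calls on Pvalb reported above held under every alternative run. Depth limits Myod1, Myf5, Myf6, Pax7 and Chrng, where 3 counts are up to 0.0999 CPM per library.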
